A study of Homo sapiens with 4 samples.

Results

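Engineered prostate cancer tissues made from LNCaP cells with fibroblasts were compared with tissues made from PC-3 cells with fibroblasts, 1 RNA-seq library for each. The comparison took the 15155 genes, of 17791 gene symbols in the deposited table, that reached 1 CPM (counts per 1000000 counts) in at least 1 of the 2 libraries. The edge of that rule fell between 15 and 16 counts: 146 genes just inside it, at 1 to 1.1 CPM, had 16 or 17 counts in their higher library, and 128 just outside, at 0.9 to 1 CPM, had 14 or 15. Either tissue was a poly(ethylene glycol)-fibrinogen hydrogel seeded with 5 cancer cells to 1 BJ-5ta fibroblast, given no treatment and harvested on day 15. LNCaP is a prostate cancer line that the labels call ADPC, for androgen-dependent, PC-3 is the line they call CRPC-ne, and BJ-5ta cells are normal human fibroblasts immortalised for culture. The 2 remaining libraries of the study, LNCaP and PC-3 tissues without fibroblasts at the same day, are used here as the background for each gene. The growth text covers PC-3 tissues alone, which leaves the LNCaP medium unknown, and it lists several amounts of added PEG diacrylate without saying which a library came from. RNA came from more than 2 tissues per group according to the series description, which does not say how they were combined. Since each group had 1 library and no replicate, no difference was tested, every comparison is of 2 libraries, and each interval below covers counting error only.

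LNCaP and PC-3 stand for different states of prostate cancer. Androgen signalling drives the secretory programme of the luminal prostate epithelium, including the kallikrein proteases, and LNCaP cells keep that programme. PC-3 cells came from a bone metastasis, grow without androgen signalling and lack several genes through deletion, alpha-catenin among them. Fibroblasts lay down collagens and proteoglycans and make many of the proteases, growth factors and adhesion molecules that PC-3 cells also make.

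Total counts were 15520243 in the LNCaP coculture and 15687894 in the PC-3 coculture, and the monocultures had 15860981 (LNCaP) and 15865690 (PC-3), so that raw counts of a gene can be read almost directly across libraries. Where a gene had 0 counts, up to 3 could have been missed, which is 0.193 CPM in the LNCaP coculture and 0.191 CPM in the PC-3 coculture. Reads of ribosomal RNA genes made up 1.23% and 2.16% of these libraries. Marker sums followed the labels, though the markers were chosen with earlier results of these data known, which makes this a weak check. The 8 LNCaP markers summed to 185089 counts in the LNCaP coculture and 11604 in the PC-3 coculture, and the 8 PC-3 markers to 1611 and 17597. In the LNCaP and PC-3 monocultures the LNCaP markers summed to 154589 and 11671, and the PC-3 markers to 142 and 15837. The 10 fibroblast markers summed to 8399 counts in the LNCaP coculture and 4770 in the PC-3 coculture, against 15 and 213 in the monocultures. In bulk RNA, fewer cells of a type and less RNA per cell cannot be told apart, so this gap does not give the number of fibroblasts.

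The cocultures differed in a large share of their genes. A gene is called LNCaP-high or PC-3-high here when its log2 fold between the cocultures, with a prior count of 2 added to steady low counts, was 1 or more in that direction. By this rule 3130 genes (20.7% of those tested) were LNCaP-high and 3579 (23.6%) PC-3-high. Between those limits, within 2-fold, lay 8446 genes (55.7%), and the median log2 fold of all genes was 0.01, with quartiles of -0.91 and 0.80. The 33 gene lists described below name 910 genes in all, each counted once however many lists hold it. Of these, 861 were in the table and 808 reached 1 CPM, and a list's counts and median cover those measured. The counts of each list are to be read beside the shares of all genes, 20.7% LNCaP-high, 23.6% PC-3-high and 55.7% within 2-fold. Larger differences leaned further towards PC-3: 447 genes (2.95%) exceeded 16-fold towards LNCaP and 804 (5.31%) towards PC-3. Of the genes past 2-fold, 484 of those higher in LNCaP had 3 counts or fewer in the PC-3 coculture, and 711 of those higher in PC-3 had 3 or fewer in the LNCaP coculture. Of the 7202 genes at 20 CPM or more in each coculture, where counting error is small, 887 were LNCaP-high and 852 PC-3-high.

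**Figure D1:**
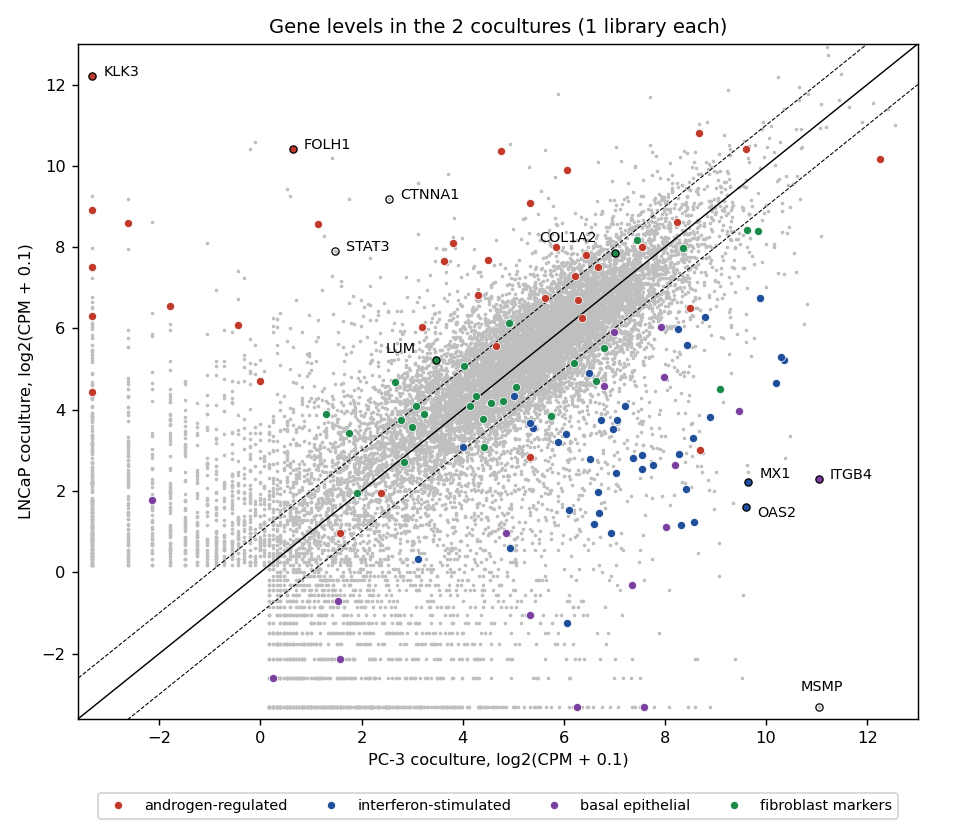
Level of each of the genes tested in the PC-3 coculture (x axis) and LNCaP coculture (y axis), as log2 of CPM plus 0.1, with 4 gene lists in colour, 10 genes labelled, the line of equal level solid and the 2-fold lines dashed. Most androgen-regulated genes (red) lie above the line, with KLK3 at 0 counts in PC-3, and the 4 of 38 that were PC-3-high lie below it. Interferon-stimulated genes (blue) lie below the line, and basal genes (purple) lie below it apart from KRT14. Fibroblast markers (green) lie on either side.

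Androgen-regulated genes made up the list furthest towards the LNCaP coculture. KLK3, which encodes prostate-specific antigen, had 74134 counts where PC-3 had 0, a difference of at least 24964-fold, after 60226 and 0 in the monocultures. KLK2, the neighbouring kallikrein protease, had 7507 against 0 (at least 2528-fold), and KLK4, of the same cluster, 5962 against 1. The kallikreins share sequence, so a small part of their reads could be misplaced among them. Of 38 measured androgen-regulated genes, 24 were LNCaP-high, 4 PC-3-high and 10 within 2-fold, with a median log2 fold of 2.34 where all genes had 0.01. The list was not uniform. FOLH1, prostate-specific membrane antigen, had 21307 counts against 23 (936-fold, 95% counting interval 624 to 1477; later ranges in brackets are the same), and ZBTB16, a zinc finger repressor, 2809 against 0. TMPRSS2, a serine protease, had 27990 against 6384 and so was expressed in either tissue, 4.43-fold apart (4.31 to 4.55), and the prostein gene SLC45A3 was 1.31-fold apart (6101 against 4712). The 4 PC-3-high members were HPGD, which inactivates prostaglandins (6511 against 124 counts, 52.0-fold), DPP4, a cell surface peptidase (626 against 110), the stress gene NDRG1 (76830 against 17768, 4.28-fold) and the EGFR feedback inhibitor ERRFI1 (5640 against 1400).

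The 200 bases before the RefSeq start of KLK3 on GRCh38.p14 (plus strand, chr19:50854715-50854914) are shown for the androgen response element core AGAACA, in capitals, at position -170 from the start.
KLK3: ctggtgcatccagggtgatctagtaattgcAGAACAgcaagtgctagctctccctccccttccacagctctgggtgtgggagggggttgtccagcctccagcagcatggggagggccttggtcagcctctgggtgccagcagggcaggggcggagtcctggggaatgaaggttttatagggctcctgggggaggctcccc
The letters AGAACA, on either strand, were found in 3 of 27 promoter windows of androgen-regulated genes and in 9.12% of the 11667 windows of tested genes (250 bases before to 50 after the start, 1 window a gene), so shares of 11.1% and 9.12% were close. KLK2, KLK4 and STEAP2 were scanned as well, had 0 matches in the 200 bases before each start and are not printed. A match to these letters is a description and shows no binding.

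Steroid receptors and their cofactors were less divided. Of 18 measured, 7 were LNCaP-high and 4 PC-3-high (median log2 fold 0.68), beside 20.7% and 23.6% of all genes. FKBP5, a co-chaperone that androgen induces, had 3877 counts against 290 (13.5-fold, 12.0 to 15.3). The pioneer factor FOXA1 was present in either tissue (9844 against 6303 counts, 1.58-fold, 1.53 to 1.63), as was HOXB13 (10233 against 8651, 1.19-fold, 1.16 to 1.23). NR3C1, the glucocorticoid receptor, went the other way, with 844 counts with PC-3 and 62 with LNCaP cells (13.5-fold, 10.4 to 17.7). The LNCaP monoculture held 11 counts of it. NCOA3, a steroid receptor coactivator, was 4.99-fold higher in PC-3 (3073 against 610).

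The 15 genes furthest towards LNCaP, of those whose higher library had 100 counts and 5 CPM, included KLK3, KLK2, KLK4, FOLH1 and ZBTB16. SYT4, a synaptotagmin of secretory vesicles, had 9464 counts against 0 in PC-3 (at least 3187-fold). NCAM2, a neural adhesion molecule, had 23990 against 13 (1864-fold, 1090.0 to 3502), PPFIA2, a synaptic scaffold protein, 3892 against 0, and GRIN3A, a glutamate receptor subunit, 3835 against 1. KCNN2, a calcium-activated potassium channel (2342 against 0), SPON2, a secreted matrix protein (21101 against 12), TMEFF2, a transmembrane protein of prostate (9046 against 1), the cancer-testis gene MAGEA3 (2668 against 0) and PRUNE2 (6111 against 2) completed the 14 that are named. MAGEA3 has near-identical relatives on chromosome X, so its reads are uncertain. Among genes at 20 CPM or more in each coculture, CKB, brain-type creatine kinase, was furthest towards LNCaP (53818 against 925 counts, 58.8-fold, 55.1 to 62.8). STEAP2, a metalloreductase (49.0-fold), the secreted protease gene ADAMTS1 (48.3-fold), PPP3CA, a calcineurin catalytic subunit (27.4-fold), and PRKACB, a catalytic subunit of protein kinase A (25.6-fold), followed it. Each of these 5 was also at least 20-fold higher in the LNCaP monoculture.

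In the other direction, the 15 genes furthest towards PC-3 were at or near 0 in the LNCaP coculture. MSMP, which encodes a small secreted prostate-associated protein (chromosome 9), had 33236 counts where LNCaP had 0, at least 10966-fold apart. KRT81 and KRT7, keratins of which the first resembles other hair keratins closely, had 11535 against 1 and 10475 against 2, COL2A1, cartilage collagen, 7490 against 0 (at least 2471-fold), and FBN2, a fibrillin, 2869 against 0. CEACAM5, carcinoembryonic antigen, had 6212 against 2 (3075-fold, 851 to 25393) and MUC16, the CA125 mucin, 2630 against 0 (at least 868-fold). The rest of the 15 were ADGRF1, TMEM30B, S100A14, KCNK15, SPTSSB, LINC02582, KRT15 and LINC00261, with between 2665 and 6073 counts in the PC-3 coculture and 0 to 2 in the LNCaP coculture. No gene of these 15 was above 3 counts in the LNCaP coculture, which nearly follows from their choice by the size of the fold.

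Interferon-stimulated genes separated the cocultures almost without exception. Of 40 measured, 38 were PC-3-high, 0 LNCaP-high, and the median log2 fold was -4.58. OAS2, a sensor of double-stranded RNA, had 12181 counts with PC-3 and 46 with LNCaP cells (262-fold, 196 to 358), and MX1, an antiviral GTPase, 12584 and 71 (175-fold, 139 to 225). ISG15, a ubiquitin-like modifier, had 20410 and 581 (34.8-fold, 32.0 to 37.8). IFI6 had 18327 and 390 (46.5-fold) and OAS3 19689 and 604 (32.3-fold), so these 3 were abundant in PC-3 while still well above the floor in LNCaP. The members within 2-fold were HERC5, a ligase for ISG15 (250 and 130 counts, 1.90-fold, 1.53 to 2.37), and the exonuclease gene ISG20 (508 and 313, 1.61-fold, 1.39 to 1.86), which were also higher in PC-3. The list stood at nearly the same place without fibroblasts, with a monoculture median of -4.69. Of 17 STAT and JAK genes, which carry interferon and cytokine signals, 8 were PC-3-high, 5 LNCaP-high and 4 within 2-fold (median -0.87). The shares of all genes were 23.6%, 20.7% and 55.7%. STAT2 is counted in this list and, with IRF9, among the interferon-stimulated genes. STAT2 had 4824 counts with PC-3 and 979 with LNCaP cells (4.88-fold, 4.55 to 5.23), and IRF9, which joins it in the interferon-activated complex, 2924 and 113 (25.6-fold). JAK1, a kinase of the interferon receptors, had 1783 counts with PC-3 and 263 with LNCaP cells (6.71-fold, 5.89 to 7.67), where the LNCaP monoculture held 130.

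The promoters of 5 of these genes are printed because nearly all of the list differed in 1 direction and the interferon response element is known to lie close to the start of such genes. Each line gives the 200 bases before the RefSeq start on GRCh38.p14 (ISG15 plus strand, chr1:1013297-1013496; IFI6 minus, chr1:27672193-27672392; OAS3 plus, chr12:112938274-112938473; BST2 minus, chr19:17405631-17405830; IFIT1 plus, chr10:89392423-89392622), with capitals where GAAA, 2 bases of any kind and GAAA followed each other on either strand.
ISG15: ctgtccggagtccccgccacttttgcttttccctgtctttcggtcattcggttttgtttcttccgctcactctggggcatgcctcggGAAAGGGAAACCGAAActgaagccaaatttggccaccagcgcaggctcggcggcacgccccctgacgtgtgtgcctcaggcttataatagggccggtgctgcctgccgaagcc
IFI6: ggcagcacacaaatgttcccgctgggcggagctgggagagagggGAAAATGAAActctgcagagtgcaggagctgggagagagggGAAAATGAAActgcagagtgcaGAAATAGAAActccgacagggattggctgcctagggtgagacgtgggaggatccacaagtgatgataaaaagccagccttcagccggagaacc
OAS3: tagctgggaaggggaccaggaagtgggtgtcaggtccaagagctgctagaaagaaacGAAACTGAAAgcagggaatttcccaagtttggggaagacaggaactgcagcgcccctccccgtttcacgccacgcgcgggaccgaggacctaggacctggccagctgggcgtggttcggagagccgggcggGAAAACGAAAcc
BST2: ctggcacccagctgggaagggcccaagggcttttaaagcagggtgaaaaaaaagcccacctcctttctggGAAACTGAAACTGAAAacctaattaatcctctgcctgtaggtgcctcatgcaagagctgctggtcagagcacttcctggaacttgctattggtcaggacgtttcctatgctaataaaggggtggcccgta
IFIT1: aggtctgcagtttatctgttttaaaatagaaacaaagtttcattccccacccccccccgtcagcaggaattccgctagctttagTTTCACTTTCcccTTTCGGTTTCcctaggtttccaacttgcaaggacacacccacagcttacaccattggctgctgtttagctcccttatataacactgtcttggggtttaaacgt
ISG15 had overlapping matches that began at -113 and -107, and BST2 at -130 and -124. IFI6 held 3, at -156, -115 and -93, OAS3 held 2, at -143 and -12, and IFIT1 2 on the other strand, at -116 and -103. Of the 31 interferon-stimulated genes with a window (250 bases before to 50 after the start, 1 a gene), 20 (64.5%) held a match, beside 2.88% of 11667 windows of tested genes, and such a match is again a description of letters. BST2, tetherin, which holds virus particles at the cell surface, had 5033 counts with PC-3 and 33 with LNCaP cells (151-fold). IFIT1, which binds viral RNA, had 4884 and 115 (42.0-fold).

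Antigen presentation genes followed with smaller folds. Of 18 measured, 11 were PC-3-high and 0 LNCaP-high (median -1.19). PSMB8 and PSMB9, immunoproteasome subunits, were 21.0-fold (15.6 to 28.9) and 12.3-fold (7.70 to 20.8) higher, from 977 against 46 and 236 against 19 counts. B2M, the light chain of class I molecules, had 19905 against 5159 counts (3.82-fold, 3.70 to 3.94), and HLA-B 7039 against 4640 (1.50-fold). HLA genes resemble each other closely and differ between lines, so the counting can split their reads unequally. The folding chaperones of the same pathway, CALR, CANX and PDIA3, were the 3 members higher in LNCaP, by less than 2-fold.

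Epithelial genes were shared in part, and of the simple keratins KRT8 and KRT18 were near equal. Of 28 luminal keratin and adhesion genes, 7 were LNCaP-high, 10 PC-3-high and 11 within 2-fold (median -0.21). The shares of all genes were 20.7%, 23.6% and 55.7%, so the list was less often within 2-fold than genes in general. KRT8 and KRT18, the paired keratins of simple epithelia, were 1.42-fold (14314 against 9983 counts) and 1.15-fold (8997 against 7712) higher in PC-3. KRT19 was 191-fold higher in PC-3 (20797 against 108, 158 to 232). E-cadherin, CDH1, had 16989 counts in the LNCaP coculture and 7019 in the PC-3 coculture (2.45-fold, 2.38 to 2.51), and EHF, an epithelial ETS factor, 15685 and 2648 (5.98-fold). Basal genes differed much more. Of 17 measured, 16 were PC-3-high, and KRT14 (52 counts in the LNCaP coculture, 2 in the PC-3 coculture) was the exception. ITGB4, the hemidesmosome integrin chain, had 33007 counts with PC-3 and 75 with LNCaP cells (436-fold, 347 to 554). LAMB3, a laminin chain of the same anchoring structure, had 4579 against 95 (47.7-fold, 38.9 to 59.1). Integrins as a family leaned the same way, with 12 of 18 PC-3-high, 0 LNCaP-high and 6 within 2-fold (median -2.04). The 3 with a log2 fold above 0 were ITGB5, ITGAV and ITGA8, between 0.09 and 0.79.

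Some genes at or near 0 in PC-3 cells alone were present at low counts in the PC-3 coculture. CTNNA1, alpha-catenin, which ties cadherins to actin (chromosome 5, 138753425 to 138935034), had 1 count where PC-3 cells grew alone, 90 in the PC-3 coculture, 7288 in the LNCaP monoculture and 8977 in the LNCaP coculture. The cocultures were 101-fold apart (81.9 to 125). STAT3, the transcription factor of interleukin-6 signalling (chromosome 17, 42313324 to 42388442), had 0 counts where PC-3 cells grew alone, 42 with fibroblasts and 3689 in the LNCaP coculture (88.7-fold, 65.5 to 123). STAT5B, its neighbour, had 0, 18 and 1014 in the same order. In all, 95 genes, Y-linked genes left aside, were at 20 CPM or more in the LNCaP monoculture and at 3 counts or fewer in the PC-3 monoculture. In the PC-3 coculture 66 of these stayed at 3 counts or fewer, 10 reached 1 CPM, 2 reached 5 CPM and 0 reached 20 CPM, and the highest was CTNNA1 itself. The next after it were TSPAN14, a tetraspanin (79 counts), PRXL2A (50), RAB5C, an endosomal GTPase (46), and HEXA, a lysosomal hexosaminidase (44), each at 0 in the PC-3 monoculture.

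The mirror image was larger. At 20 CPM or more in the PC-3 monoculture and at 3 counts or fewer in the LNCaP monoculture were 212 genes, and 135 of them were above 3 counts in the LNCaP coculture, 92 at 1 CPM or more, 29 at 5 CPM or more and 10 at 20 CPM or more. COL6A3, a chain of type VI collagen, had 596 and 1 counts in the PC-3 and LNCaP monocultures, but 2752 with PC-3 and 4449 with LNCaP cells, where LNCaP was 1.63-fold higher (1.56 to 1.71). CD44, the hyaluronan receptor, had 2649 and 1 counts in the PC-3 and LNCaP monocultures and 2818 and 776 in the cocultures, 3.59-fold higher in PC-3 (3.32 to 3.90). GJA1, connexin 43, had 727 and 0, then 736 and 560 (1.30-fold, 1.16 to 1.45). MMP14, a membrane-bound metalloproteinase, had 2205 and 1, then 2955 and 566 (5.17-fold), and CAV1, caveolin 1, 1047 and 0, then 1128 and 297 (3.76-fold). Fibroblast markers were higher in the same LNCaP library, summing to 8399 counts after 15, and which cells held these transcripts was not tested.

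**Figure D2:**
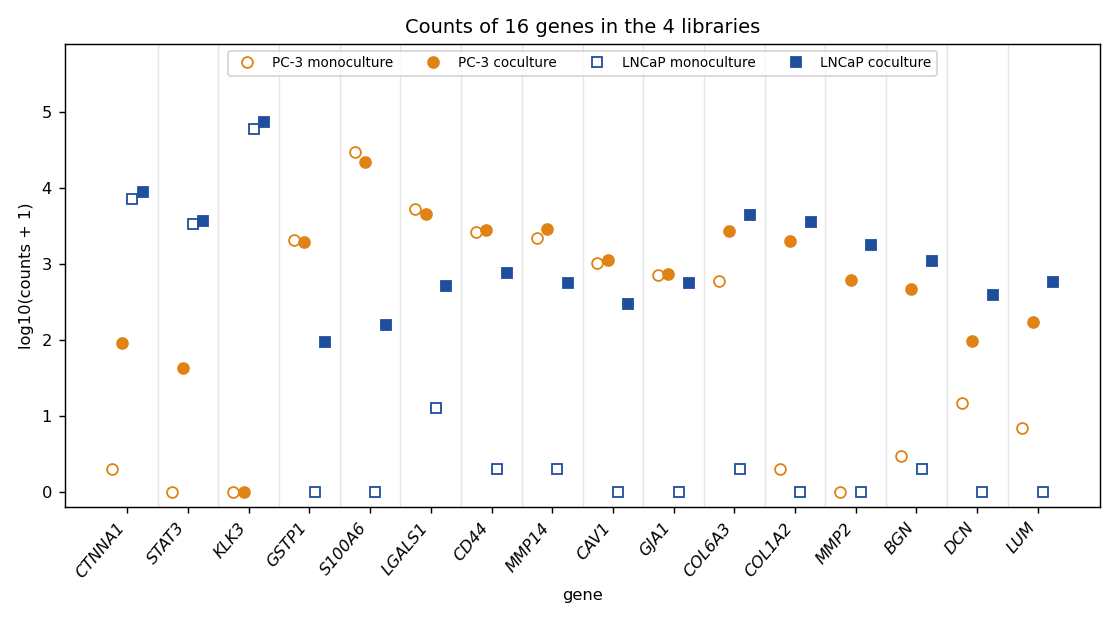
Counts of 16 genes in the 4 libraries, as log10 of the count plus 1 (y axis), with circles for PC-3, squares for LNCaP, open symbols for monocultures and filled symbols for cocultures. CTNNA1 and STAT3 leave the floor in the PC-3 coculture at 90 and 42 counts, CD44, MMP14, CAV1 and GJA1 go from 0 or 1 count to between 297 and 776 in the LNCaP coculture, and COL1A2, MMP2, BGN, DCN and LUM are higher in the LNCaP than in the PC-3 coculture.

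Of 23 caveolin, S100, annexin and galectin genes, 17 were PC-3-high and 3 LNCaP-high (median -3.13, against -7.43 in monoculture), the same counts as in monoculture. Of the 17 PC-3-high in monoculture, 12 lay nearer equality in coculture by 2-fold or more. S100A6 had 29652 and 0 counts in the PC-3 and LNCaP monocultures and 22329 and 156 in the cocultures (142-fold, 121 to 167). LGALS1, galectin 1, had 5338 and 12, then 4551 and 513 (8.78-fold), and ANXA2, annexin A2, 5297 and 8, then 5201 and 438 (11.8-fold). S100A14 and S100A2 were different, with 9 and 6 counts in the LNCaP monoculture and 0 in its coculture. Of 24 mesenchymal transition genes, 13 were PC-3-high, 1 LNCaP-high and 10 within 2-fold, and the median moved from -5.60 in monoculture to -1.44. Of the 19 PC-3-high in monoculture, 16 lay nearer equality in coculture by 2-fold or more. For this list and the one before, choosing members by a large monoculture fold itself favours such a shift. The same share was not counted over all genes. For all 2066 genes at least 4-fold higher in PC-3 cells alone, the median size of the log2 fold was 4.08 in monoculture and 3.45 in coculture. Vimentin, VIM, lay just within 2-fold (10389 counts in the PC-3 coculture against 5239, 1.96-fold, 1.90 to 2.03) after 8.16-fold in monoculture. The cadherin genes CDH2 and CDH11 were 3.78-fold and 24.1-fold higher in PC-3, and ZEB1, a repressor of E-cadherin, 6.05-fold (226 against 37 counts). FN1, fibronectin, was the 1 LNCaP-high member, with 20421 counts against 5189 (3.98-fold, 3.86 to 4.10) after 14219 and 5276 in the monocultures.

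Fibroblast markers as a list were centred near equality between the cocultures. Of 30 measured, 8 were LNCaP-high, 8 PC-3-high and 14 within 2-fold, beside 20.7%, 23.6% and 55.7% of all genes. The list median was 0.00, where it stood at -1.92 in monoculture. Either end of the list had its own members. MFAP4, a microfibril protein, had 229 counts in the LNCaP coculture and 37 in the PC-3 coculture (6.25-fold, 4.40 to 9.11). The small proteoglycan genes DCN (399 against 98, 4.11-fold, 3.29 to 5.18), LUM (579 against 173, 3.38-fold, 2.85 to 4.03) and BGN (1115 against 477, 2.36-fold, 2.12 to 2.63) were higher in LNCaP as well. At the PC-3 end, COL5A2, a chain of type V collagen, had 8549 counts against 354 (23.9-fold), and COL6A1 and COL6A2 were 2.70-fold and 2.27-fold higher. The PC-3 monoculture already held 7919, 12677 and 9917 counts of these 3 genes. In between lay PDGFRB, a receptor of mesenchymal cells (276 against 265 counts, ratio 1.03, 0.868 to 1.22), CD248, endosialin (299 against 310, 1.05, 0.891 to 1.23), and FAP, fibroblast activation protein (57 against 58, 1.03, 0.701 to 1.51), whose counting intervals include equality. Of 25 collagen chains, 14 were PC-3-high and 0 LNCaP-high (median -1.18). COL1A1 (5123 against 3946 counts, 1.29-fold higher in PC-3) and COL1A2 (2026 against 3577, 1.78-fold higher in LNCaP), the chains of type I collagen, lay on opposite sides of equality. The PC-3 monoculture held 3104 counts of COL1A1 and 1 of COL1A2.

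Genes found in neither cancer line alone were examined next. There were 81 genes with at most 3 counts in either monoculture and at least 1 CPM in a coculture. Their median log2 fold was 0.56 with quartiles of -0.15 and 1.42, and 29 were LNCaP-high, 14 PC-3-high and 38 within 2-fold. Over all genes tested these shares were 20.7%, 23.6% and 55.7%, with a median of 0.01. Summed, they had 11733 counts in the LNCaP coculture and 6690 in the PC-3 coculture, a ratio of 1.77. Most of the LNCaP sum came from COL1A2 (3577 counts), MMP2 (1779), BGN (1115) and TIMP3 (1040), so this ratio does not describe the set gene by gene. The ratio differed widely from gene to gene. Of the 14 with at least 100 counts in their higher library, 13 were higher in LNCaP. MMP2, a gelatinase (chromosome 16, 55478830 to 55506691), had 1779 against 617 counts (2.91-fold, 2.66 to 3.20) and DKK3, a secreted Wnt regulator, 494 against 197 (2.53-fold, 2.14 to 3.00). Lower ratios were seen for TIMP3, the matrix-bound metalloproteinase inhibitor (1040 against 772, 1.36-fold, 1.24 to 1.50), and TGFBI, a matrix adhesion protein (148 against 141, 1.06-fold, 0.836 to 1.35). COL5A3, another type V collagen chain, was the exception, with 100 counts with PC-3 and 12 with LNCaP cells (8.25-fold, 4.52 to 16.5). The intervals for MMP2, TIMP3 and COL5A3 do not overlap.

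Secreted proteases and their inhibitors were divided. Of 40 measured, 19 were PC-3-high and 10 LNCaP-high (median -0.81), beside 23.6% and 20.7% of all genes. PLAU, urokinase, had 6277 counts with PC-3 and 20 with LNCaP cells (311-fold, 201 to 509), and TIMP1, an inhibitor of metalloproteinases, 3768 and 246 (15.2-fold). ADAMTS1 was the most LNCaP-leaning member (22881 against 479 counts). Contractile and actin-binding genes were also split, 8 of 20 PC-3-high and 5 LNCaP-high (median -0.79), beside 23.6% and 20.7% of all genes. CNN3, a calponin, was lower in LNCaP (75 against 1095 counts), and ACTA2, smooth muscle actin, higher (130 against 31).

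Growth factors and their binding proteins favoured the PC-3 coculture. Of 49 measured, 32 were PC-3-high and 6 LNCaP-high (median -2.58). FST, follistatin, which binds activins, had 1846 counts against 4 (457-fold, 178 to 1678), and IGFBP5, an IGF carrier, 8047 against 1445 (5.51-fold, 5.21 to 5.83). The LNCaP coculture was higher in VEGFA, the angiogenic factor (14507 against 3589, 4.08-fold, 3.94 to 4.24), and IGFBP2 (1473 against 69, 21.6-fold). Of 31 receptor tyrosine kinases, 10 were PC-3-high and 8 LNCaP-high (median -0.44), beside 23.6% and 20.7% of all genes. MET, the receptor for hepatocyte growth factor, had 5747 counts against 65 (87.5-fold, 68.6 to 114) and MST1R, its relative, 3353 against 18 (184-fold). EGFR had 7506 counts in the LNCaP coculture and 3306 in the PC-3 coculture (2.29-fold, 2.20 to 2.39). AXL was 4.85-fold higher in PC-3, with 632 counts against 129, after 644 and 2 in the monocultures.

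Inflammatory genes, Wnt genes and YAP targets were also more often higher in the PC-3 coculture. Of 34 cytokines, chemokines and NF-kB targets, 22 were PC-3-high and 4 LNCaP-high (median -1.88). ICAM1, an adhesion molecule for leukocytes, had 2088 against 11 counts (188-fold, 105 to 377), and CXCL8, interleukin 8, 380 against 10 (37.6-fold, 20.2 to 79.1). The LNCaP side held IL32, CXCL12, IL6R and IL6ST, with log2 folds from 1.64 to 2.47. Of 33 Wnt genes, 16 were PC-3-high and 8 LNCaP-high (median -0.97), beside 23.6% and 20.7% of all genes. The Wnt inhibitor DKK1 led the PC-3 side (12582 against 85 counts, 147-fold, 118 to 184). Of 25 YAP and TEAD genes, 15 were PC-3-high and 1, the kinase gene LATS1, was LNCaP-high (median -2.003). WWTR1, which encodes TAZ, had 6265 against 94 counts (66.0-fold), while its relative YAP1 was near equal (3411 against 3275, ratio 1.03, 0.982 to 1.08). Of 23 TGF-beta and BMP genes, 8 were PC-3-high and 3 LNCaP-high (median -0.60), beside 23.6% and 20.7% of all genes. Those LNCaP-high were PMEPA1, BMPR1B and SMAD7. The type II receptor TGFBR2 was at the PC-3 end (1581 against 82 counts).

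Transcription factors of the ETS, AP-1 and related families were strongly split. Of 31, 16 were PC-3-high, 9 LNCaP-high and 6 within 2-fold (median -1.08), beside 23.6%, 20.7% and 55.7% of all genes. ETV4 had 2819 counts in PC-3 and 17 in LNCaP (164-fold, 102 to 282), whereas its relative ETV1 had 5802 in LNCaP and 913 in PC-3 (6.42-fold, 5.99 to 6.89). FOSL1, an AP-1 subunit, was 98.3-fold higher in PC-3 (7246 against 73), and FOS, another, higher in LNCaP (583 against 96). MYC was 3.62-fold higher in LNCaP (5010 against 1400 counts, 3.41 to 3.84). Among 30 tumour suppressors and DNA repair genes, 7 were LNCaP-high and 6 PC-3-high, near the 20.7% and 23.6% of all genes. The other 17 lay within 2-fold, and the list median was 0.40. CDKN1A, an inhibitor of cyclin-dependent kinases, had 5099 counts in LNCaP and 621 in PC-3 (8.29-fold, 7.63 to 9.03). GSTP1, a glutathione transferase, had 1959 counts with PC-3 and 93 with LNCaP cells (20.9-fold, 16.9 to 26.0), where the LNCaP monoculture had 0. The drug metabolism and redox list that holds it had 15 of 30 members PC-3-high and 5 LNCaP-high (median -0.99), with CYP1B1 at 2561 against 2 counts and UGT2B17, which glucuronidates androgens, at 3 against 1463.

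The metabolic and stress gene lists that follow had medians above 0, all smaller than that of the androgen-regulated genes. The drug metabolism and redox list above, at -0.99, did not. Of 37 hypoxia and glycolysis genes, 13 were LNCaP-high and 6 PC-3-high (median 0.42), beside 20.7% and 23.6% of all genes. GPI, a glycolytic isomerase, had 32377 counts in LNCaP and 6440 in PC-3 (5.08-fold, 4.94 to 5.22), and GAPDH 105395 and 37643 (2.83-fold). Glucose transporter SLC2A1 was 3.79-fold higher in PC-3 (15935 against 4157) and ANGPTL4, an inhibitor of lipoprotein lipase, 56.4-fold (6719 against 118). Of 32 cholesterol and fatty acid synthesis genes, 10 were LNCaP-high and 6 PC-3-high (median 0.28), beside 20.7% and 23.6% of all genes. The LNCaP end held FASN, fatty acid synthase, at 58239 against 9540 counts (6.17-fold, 6.04 to 6.30), ACLY, which makes cytosolic acetyl-CoA (6.07-fold), and the elongase gene ELOVL6 (18.5-fold). The PC-3 end held the cholesterol synthesis genes SQLE and MVD, with log2 folds of -2.03 and -1.72. Of 28 polyamine and one-carbon genes, 13 were LNCaP-high and 4 PC-3-high (median 0.71). AMD1, which makes the aminopropyl donor of polyamines, had 22725 against 3260 counts (7.04-fold, 6.79 to 7.31), and CBS, of the transsulfuration pathway, 1740 against 54 (32.6-fold, 24.8 to 43.5). Of 14 metallothioneins and zinc transporters, 7 were LNCaP-high and 0 PC-3-high (median 0.78), led by the zinc exporter SLC30A4 (11793 against 135, 88.2-fold). Of 25 endoplasmic reticulum stress genes, 4 were LNCaP-high and 5 PC-3-high, beside 20.7% and 23.6% of all genes. The chaperone gene HSPA5 had 18128 against 12600 counts.

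Proliferation genes were the most alike of the 33 lists by the share within 2-fold. Of 39 measured, 35 lay within 2-fold, 2 were LNCaP-high and 2 PC-3-high, and the median was 0.02, beside 0.51 in the monocultures. MKI67, the Ki-67 antigen, had 1457 counts in the LNCaP coculture and 1990 in the PC-3 coculture (1.35-fold higher in PC-3, 1.26 to 1.45), after 1853 and 1316 in the monocultures, which is the opposite order. CCNE1, cyclin E1, had 201 against 38 counts (5.34-fold higher in LNCaP, 3.76 to 7.77). RRM1, a ribonucleotide reductase subunit, was 2.90-fold higher in LNCaP, and CENPA, the centromeric histone, and CCNE2, cyclin E2, were the 2 past 2-fold in PC-3.

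Of 30 neuroendocrine and neuronal markers listed, 16 were measured, of which 6 were PC-3-high and 3 LNCaP-high (median -0.27), beside 23.6% and 20.7% of all genes. At the PC-3 end were FOXA2, a pioneer factor (311 against 0 counts, at least 103-fold), and PEG10 (6653 against 85, 77.5-fold). SYP, synaptophysin, had 29 counts in PC-3 and 55 in LNCaP, ENO2, neuron-specific enolase, 3941 and 3943, and UCHL1 76 and 91. Of 25 surface antigens, 11 were PC-3-high and 9 LNCaP-high (median -0.34), beside 23.6% and 20.7% of all genes. FOLH1, STEAP2, STEAP1 and the protease gene HPN (4260 against 6 counts) were at the LNCaP end, and CEACAM5, CEACAM6 and CD55 at the PC-3 end.

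**Figure D3:**
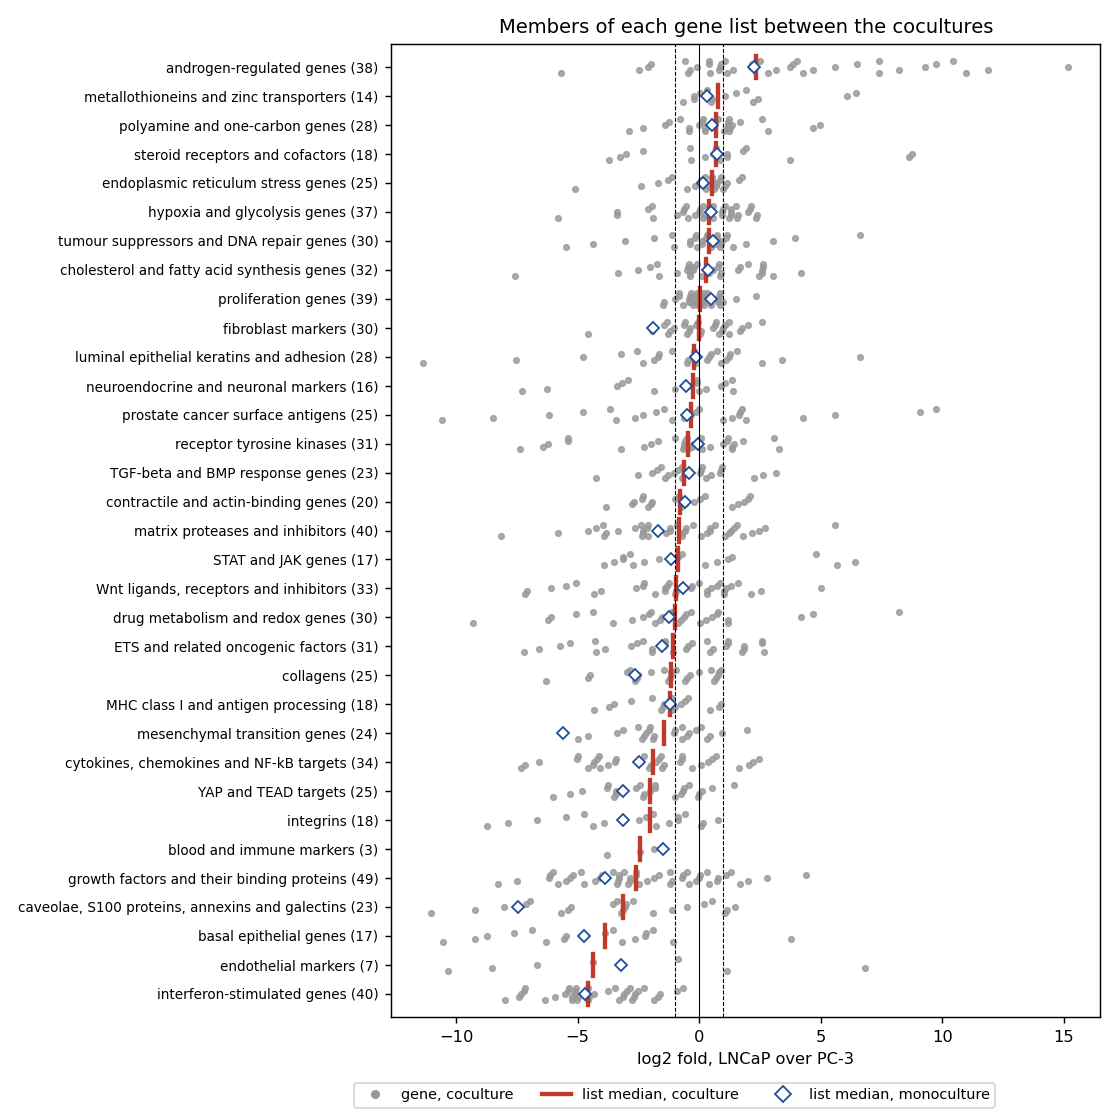
Log2 fold, LNCaP over PC-3, of each measured member (grey) of the 33 gene lists between the cocultures, with the list median in coculture (red bar) and in monoculture (blue diamond) and the number of measured members in brackets. The medians run from -4.58 for interferon-stimulated genes to 2.34 for androgen-regulated genes, and the mesenchymal and caveolae, S100, annexin and galectin lists show red bars nearer 0 than their diamonds.

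Markers of other cell types were read to see what else the tissues could hold, and the cancer lines themselves held some of them. KDR, the main VEGF receptor of endothelium, had 2562 counts with PC-3 cells and fibroblasts and 2681 with PC-3 cells alone, against 0 in either LNCaP library. PECAM1 had 1091 and 806 in the same PC-3 libraries and 1 and 0 in LNCaP. VWF, von Willebrand factor, was the reverse, with 567 counts in the LNCaP coculture and 171 in its monoculture, against 3 and 0 in PC-3. Of 19 blood and immune markers, 9 were in the table and 3, CD14, LYZ and CD68, reached 1 CPM.

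The same line comparison without fibroblasts shares no library with this one, and the gene-by-gene folds were close. Over the 14784 genes tested in both comparisons, Pearson's r between the log2 folds was 0.95, a description across genes that share cell lines and are not independent. In the monocultures, 22.1% of genes tested passed 2-fold towards LNCaP and 23.6% towards PC-3. Of 3170 genes 2-fold or more higher in LNCaP cells alone, 2580 (81.4%) were so in the LNCaP coculture, where 3012 of these genes passed (85.7% of the 3012). Of 3455 2-fold or more higher in PC-3 cells alone, 3047 (88.2%) were so in the PC-3 coculture (88.5% of 3442). Of 1507 genes 8-fold or more higher in PC-3 cells alone (a threshold that 10.3% of all genes tested there passed), 41 (2.72%) lay within 2-fold in coculture, and the median size of the log2 fold was 4.90 in monoculture and 4.09 in coculture. Of 779 8-fold or more higher in LNCaP cells alone (5.55% of all passed), 6 (0.770%) did, with medians of 4.45 and 4.25. At a 4-fold threshold the shares were close, with 66 of 2066 PC-3 genes (3.19%) and 39 of 1319 LNCaP genes (2.96%) within 2-fold in coculture.

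The genes that had separated the lines furthest and lay within 2-fold in coculture included GJA1, COL6A3, ANPEP, PDGFRA, TNC, PCDH18 and TRHDE on the PC-3 side. ANPEP, an aminopeptidase, had 294 and 0 counts in the PC-3 and LNCaP monocultures and 522 and 314 in the cocultures (1.65-fold, 1.43 to 1.90). PDGFRA, the alpha receptor for platelet-derived growth factor, had 186 and 0, then 328 and 210 (1.55-fold, 1.30 to 1.85), and TNC, tenascin C, 589 and 6, then 1378 and 841 (1.62-fold, 1.49 to 1.77). On the LNCaP side AEBP1, a collagen-binding matrix protein, led with 0 and 26 counts in the PC-3 and LNCaP monocultures and 146 and 228 in the cocultures (1.58-fold, 1.28 to 1.96). It was followed by STUM, FOXD3-AS1, GRIN2C, GRID2IP, CTAGE15, MIR29B2CHG and CD164L2, of which none had more than 147 counts in any library. The 8 were taken by the size of their monoculture log2 fold. MIR29B2CHG and CD164L2, at 2.92 each with the prior count, lay just under the 8-fold threshold on that scale. Their ratios without the prior count were 8.52 and 9.77. Each of the 7 after AEBP1 had more counts in the PC-3 coculture than in the PC-3 monoculture. Each also had fewer in the LNCaP coculture than in the LNCaP monoculture. Choosing genes far apart in monoculture and within 2-fold in coculture favours this pattern, so it is not a separate result. FOXD3-AS1 is an antisense gene, and the kit does not mark strand.

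**Figure D4:**
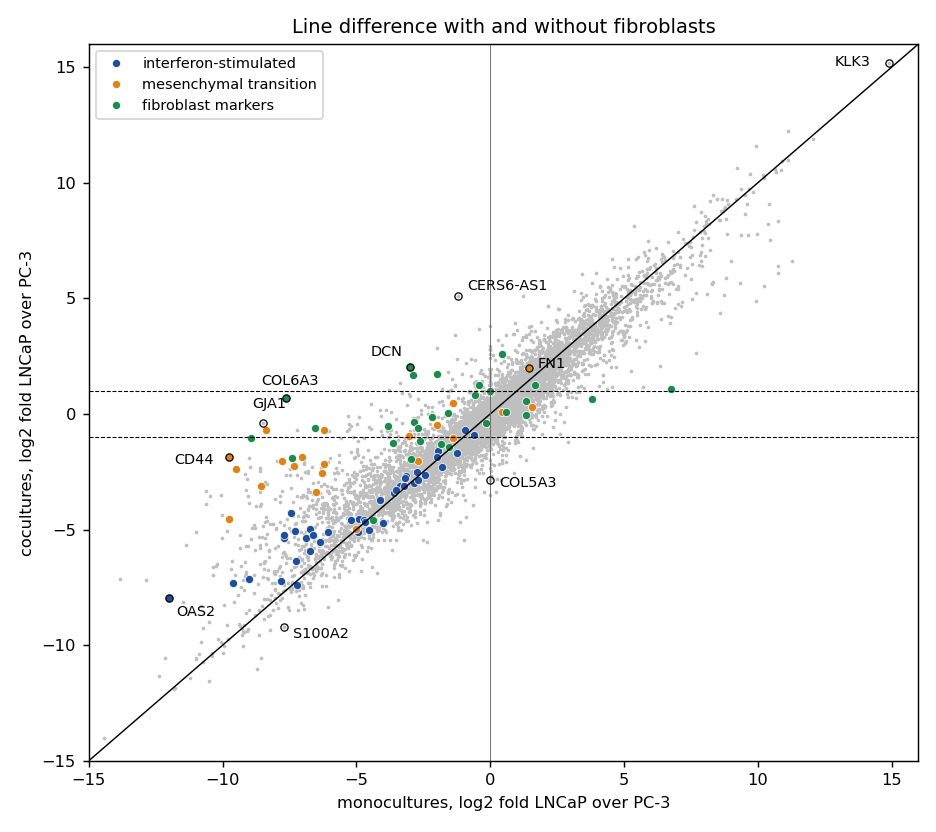
Log2 fold, LNCaP over PC-3, of each gene in the monocultures (x axis) and cocultures (y axis), with 3 gene lists in colour, 10 genes labelled, the line of equal fold solid and the 2-fold limits of the coculture fold dashed. Interferon-stimulated genes lie along or near the diagonal, while many mesenchymal and fibroblast genes at the left, such as CD44, GJA1 and COL6A3, lie above it.

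By chromosome, the direction of difference was uneven. On chromosome 20, 9.51% of 410 genes tested were LNCaP-high and 32.0% were PC-3-high, and on chromosome 2 the shares were 13.2% and 30.3% of 1000. The balance was the other way on chromosome 16 (28.1% and 11.5% of 687), chromosome 15 (31.7% and 15.0% of 514) and chromosome 22 (24.3% and 11.1% of 371). Median log2 folds ran from -0.48 on chromosome 20 to 0.59 on chromosome 4, beside 0.01 over all genes. In the monocultures these chromosomes had medians of -0.45 and 0.50. Chromosome 21, home of TMPRSS2, had 14.1% and 33.5% of 185 genes, with MX1 on the PC-3 side.

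**Figure D5:**
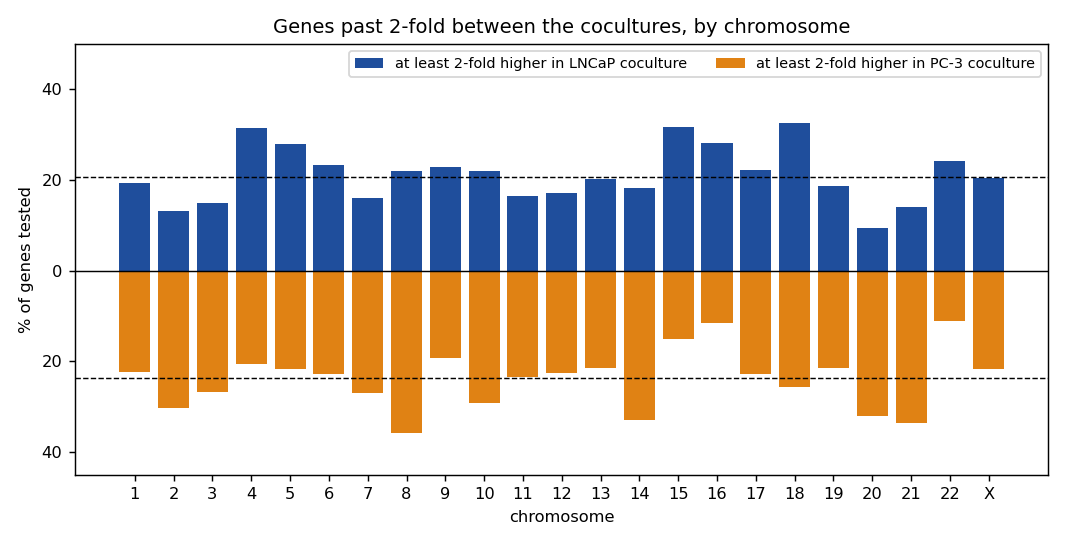
Share of genes tested on each autosome and on X that were LNCaP-high (blue, upward) or PC-3-high (orange, downward), with the shares over all genes, 20.7% and 23.6%, dashed. Chromosomes 4, 15, 16 and 18 reach furthest above the upper line and chromosomes 2, 8, 14, 20 and 21 furthest below the lower one.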

How the data were processed

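Bulk RNA of 4 libraries was sequenced from TruSeq RNA v2 libraries, which do not mark strand, per the labels. The authors deposited a table of estimated counts by gene symbol, which were not normalized. The submitters' processing notes name FastQC, STAR, Partek and hg38, and what each did, its version and the annotation are not given in the sources used here. Values were rounded to whole numbers and scaled by TMM (edgeR 4.0.16, R 4.3.3) to CPM. Log2 folds took a prior count of 2. A fold without a log is the ratio of CPM values, with its 95% interval taken from an exact binomial interval on the share of the gene's counts in 1 library. A gene at 0 counts was set at 3 counts, which gives a bound ("at least"). Because PCR copies cannot be told from separate molecules here, intervals and bounds cover counting error only. Ratio and interval code was tested on simulated data.

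Genes named were line and fibroblast markers, up to 4 genes at each end of the 33 lists and members with a stated role, the 15 at each end of the comparison, the 10 at each end among genes at 20 CPM in each library, and up to 8 at each end of the sets set against the monocultures. The highest genes of the line-restricted sets were chosen after their values were seen. The members and lists were chosen with earlier results of these data known. Y-linked genes enter the counts over all genes and are not named, and some other genes are not reported here. Positions and promoters are from RefSeq on GRCh38.p14. Alternatives changed the scaling (column totals, DESeq2 1.42.0 size factors, TMM on genes of the monocultures), the low-count filter, the prior count, the rounding and the thresholds.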

Additional observations from a re-analysis of the deposited data

Results flagged for a closer look

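For 5 genes with at least 100 counts in their highest library, the log2 folds (with a prior count of 2) passed 1 in size in opposite directions with and without fibroblasts, and this difference was not tested. LUM, lumican, a proteoglycan of collagen fibrils, had 6 counts in PC-3 and 0 in LNCaP cells alone (log2 fold -1.99, where 6 counts against 0 give a ratio of at least 1.98), but 173 and 579 in the cocultures (1.75). DCN, decorin, a related proteoglycan, had 14 and 0 (-2.99), then 98 and 399 (2.02). GREM1, gremlin, a secreted BMP antagonist, had 13 and 0 (-2.90), then 51 and 165 (1.67). TNFRSF11B, osteoprotegerin, a decoy receptor for RANKL, had 26 and 0 (-3.80), then 87 and 176 (1.01). These 4 rested on 0 to 26 counts in the monocultures.

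CERS6-AS1, an antisense transcript of the ceramide synthase gene CERS6, moved in another way, with 61 and 25 counts in the PC-3 and LNCaP monocultures and 4 and 205 in the cocultures. Its log2 fold was -1.21 in monoculture and 5.12 in coculture, where the ratio was 51.8 (19.9 to 192). The library kit does not mark strand, so its reads cannot be told apart from those of genes it overlaps.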

How the results depend on the processing

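Depth and 1 library per group limited the comparison: no spread between tissues, leave-one-out value or test could be had. No paired analysis was possible because each group had 1 library. Over the alternatives tried, 272 list medians and counts stayed close to those reported and 17 moved, where a median moved if it changed by more than the median half-width of its members' 95% counting intervals, and a count if it changed by more than 1.5 times. Of 34 list medians, 1 changed sign, that of proliferation genes, from 0.02 to -0.0028 with DESeq2 size factors. The 229 genes named in the text gave 1819 values and kept their direction apart from ENO2, at 0.02 as reported and -0.01 with DESeq2 size factors or with TMM from monoculture genes. With no filter the medians of neuroendocrine markers (-0.08, from -0.27) and receptor tyrosine kinases (-0.24, from -0.44) stayed within that tolerance. The median of all genes lay between -0.02 (DESeq2 size factors) and 0.02 (5 CPM filter). With the 5 CPM filter, list medians became -5.55 for basal epithelial genes (-3.85 as reported), -1.88 for mesenchymal genes (-1.44), -1.26 for STAT and JAK genes (-0.87), 1.05 for metallothioneins and zinc transporters (0.78), 0.90 for polyamine and one-carbon genes (0.71) and -6.66 for endothelial markers (-4.35). With no filter they were -0.28 for TGF-beta and BMP genes (-0.60), 0.50 for metallothioneins and zinc transporters and -0.80 for endothelial markers, whose median with a prior count of 0.5 was -6.30. The filters change which genes a list holds. Genes found in the cocultures alone numbered 81 as reported, 32 when the monocultures had 0 counts and 205 at up to 10 counts. Genes within 2-fold in coculture after separating the monocultures numbered 39 at a 4-fold and 0 at a 16-fold threshold towards LNCaP (6 at 8-fold), and 66 and 21 towards PC-3 (41 at 8-fold). Genes in opposite directions numbered 24 at 2-fold and 1 at 4-fold.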

Other observations

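Some neighbouring genes on a chromosome differed in the same direction, a pattern that was looked for after the values were seen. Runs of at least 4 neighbouring genes, each at least 4-fold apart in the same direction and at 5 CPM or more in the higher coculture, were collected from 12463 genes with a position. Of these, 2288 (18.4%) were at least 4-fold apart, and how many runs their order alone would give was not tested. There were 28 runs with 138 genes in all, 10 of them higher in LNCaP and 18 higher in PC-3. The longest held 9 genes of the cancer-testis region of chromosome X (152133310 to 152769689), MAGEA10, GABRA3, MAGEA3, MAGEA2B, CSAG1, MAGEA12, MAGEA2, CSAG3 and MAGEA6, higher in LNCaP with a median log2 fold of 8.23. Several of these have near-identical copies, and which copy a read came from is uncertain.

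A run of 8 genes at the HOXA cluster (chromosome 7, 27162438 to 27207259), which encodes homeobox factors of body position, was higher in PC-3 with a median of -5.91. HOXA13 had 2246 counts with PC-3 and 21 with LNCaP cells in coculture, after 2577 and 2 in the monocultures, and HOXA9 had 738 and 12, after 726 and 1. Overlapping antisense and read-through genes of this cluster (HOXA10-AS, HOXA11-AS, HOXA10-HOXA9) were counted without strand.

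STAT3, STAT5A and STAT5B shared a run with KAT2A, RAB5C and GHDC on chromosome 17 (42113111 to 42388442), higher in LNCaP with a median of 5.62. KAT2A, a histone acetyltransferase, had 2359 counts in the LNCaP coculture and 11 in the PC-3 coculture, and GHDC 224 and 10. Both had 0 in the PC-3 monoculture, as STAT3 and RAB5C did. On chromosome 5 (70968166 to 72209565) 6 genes that included GTF2H2, a subunit of transcription factor TFIIH, were higher in LNCaP, and GTF2H2 had 0 counts in PC-3 cells alone, 18 in their coculture and 1174 in that of LNCaP.

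Imprinted and immune loci appeared among the runs as well. MKRN3, NDN, SNHG14 and SNRPN on chromosome 15 (23565674 to 25419462) were higher in LNCaP with a median of 3.50, and NDN, necdin, had 670 counts with LNCaP cells and fibroblasts, against 0 for PC-3 with or without them. CD274, which encodes the checkpoint ligand PD-L1, lay in a LNCaP run on chromosome 9 with RLN2, RLN1 and PLGRKT, at 1153 counts against 69, in the direction opposite to the interferon-stimulated genes. GBP3, GBP1, GBP2 and GBP4, interferon-induced GTPase genes on chromosome 1 (89006680 to 89198942), were higher in PC-3 with a median of -3.19, and GBP1 had 420 counts against 35.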
